A study of Mus musculus with 2 samples.

Results

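Lhx6-positive neurons were profiled by droplet RNA sequencing of single cells from brain tissue that the labels call brain hemispheres and the study describes as dorsal telencephalon. The embryos were wild-type (WT) mice at embryonic day 14.5. Members were selected on their measured UMIs: a cell was a member when it held at least 1 UMI of Lhx6, at least 3 UMIs of Gad1 and Gad2 together, and at most 2 UMIs each of the cycle genes Mki67 and Top2a and of the excitatory genes Neurod2 and Neurod6. Each UMI (unique molecular identifier) stands for a captured transcript. Of the 4301 barcodes, 3182 passed a floor of 1000 genes and a ceiling of 10% of UMIs from mitochondria, and 127 of these were members. Both libraries carried the label EomesDot and the genotype WT, with no treatment, and they are called replicate 2 and replicate 4 after their titles. They formed 1 group, so the comparisons below run between cell classes within the libraries and not between groups of embryos. The study describes C57BL/6J embryos, and how these relate to the EomesDot label is not stated. Whether each library came from 1 embryo or several is not stated either, so the spread between libraries may be partly technical.

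Cortical interneurons that use the transmitter GABA are born outside the cortex and reach it by tangential migration. The medial ganglionic eminence (MGE), a germinal zone of the ventral telencephalon, produces those that later express somatostatin or parvalbumin. The homeobox factor Lhx6 is switched on as MGE cells leave the cycle and is needed for their migration and for their later fates. The caudal ganglionic eminence (CGE) gives rise to other interneurons, and the lateral ganglionic eminence to striatal projection neurons, which also make GABA.

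Members made up 4.21% of kept cells in replicate 2 (51 of 1211, 95% exact binomial interval 3.15% to 5.50%) and 3.86% in replicate 4 (76 of 1971, 3.05% to 4.8%). These intervals cover counting error only, and the shares differed by less than their widths. The mean share was 4.03% ± 0.251 (SD, n = 2). Members had a median of 23396 UMIs and 5341 genes in replicate 2 and of 14418 UMIs and 4218 genes in replicate 4, so replicate 2 was the more deeply sampled. Libraries shared 3 barcodes in all, 1 among kept cells and 0 among members. The doublet caller Scrublet marked 29 kept cells and none of the members.

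The gate itself decided how the members stood on its own genes, and these values are a description. Lhx6 had a median of 6 UMIs per member in replicate 2 and of 3 in replicate 4. Just inside the Lhx6 threshold lay 22 members with 1 UMI, 21 of them in the shallower replicate 4, and 18 with 2. On the Gad1 and Gad2 threshold, 3 members held 3 to 5 UMIs and 5 cells with an Lhx6 UMI fell just outside with 1 or 2. A further 8 cells were turned away by the cycle genes, with 6 to 252 UMIs of these, and 5 by Neurod2 and Neurod6, with 4 to 48. Of the members, 112 held no UMI of the cycle genes and 121 held none of Neurod2 and Neurod6.

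Comparison classes came from the same kept cells. Lhx6-negative GABAergic neurons passed the same gate with no UMI of Lhx6, Six3 or Isl1 (24 cells in replicate 2 and 62 in replicate 4). Six3 or Isl1 GABAergic neurons had no Lhx6 UMI and at least 1 UMI of these striatal factors, and only 1 such cell lay in replicate 2 against 64 in replicate 4. Excitatory neurons held at least 3 UMIs of Neurod2 and Neurod6 and at most 2 of Gad1 and Gad2 (663 and 977 cells). The Lhx6-negative class was shallower than the members, with medians of 12662.5 and 9142.5 UMIs. Levels are CPM, the UMIs of a gene per 1000000 UMIs summed over the cells of a class in a library, and are given for replicate 2 and then for replicate 4.

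Markers of MGE-derived interneurons that the gate did not use were read in members and in excitatory neurons. Nxph1, which encodes the secreted ligand neurexophilin of neurexins, was found in 51 of 51 and 75 of 76 members, at 7130 and 6847 CPM. In excitatory neurons it lay at 8.94 and 5.59 CPM. Erbb4, the neuregulin receptor of migrating interneurons, had 17867 and 17781 CPM in members and 8.01 and 12.1 in excitatory neurons. The transcription factor gene Maf, active in postmitotic MGE cells, was found in 98.0% and 85.5% of members, at 650 and 405 CPM, against 0.266 and 1.58 CPM in excitatory neurons. All 3 markers were present in both libraries, and the summed levels of members and excitatory neurons did not overlap in any of them. Single cells did overlap, since 11 of 76 members of replicate 4 held no Maf UMI and 14 of its 977 excitatory neurons held at least 1. General GABAergic genes were also higher in members than in excitatory neurons, so that contrast does not tell MGE origin from other GABAergic origins. In Lhx6-negative GABAergic neurons, Nxph1 lay at 395 and 1118 CPM, Maf at 71.6 and 98.6, and Erbb4 at 11171 and 14614.

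Other genes of the lineage were read in the same sums. Sox6, needed for the positioning of MGE interneurons, had 2608 and 2171 CPM, and Satb1, a chromatin organizer of the same lineage, had 590 and 415. Nkx2-1, the factor that specifies MGE progenitors, was found in 1 of 51 and 9 of 76 members, at 1.71 and 13.2 CPM. Lhx8, which marks MGE cells that stay in the ventral telencephalon, had 0.855 CPM in replicate 2 and no UMI in replicate 4. Pvalb and Vip, markers of other mature interneurons, had no UMI in any member, and Chat and Slc18a3 of cholinergic neurons had none either. With 1169935 and 1215624 UMIs summed over the members, a count of 0 over all members allows up to 3 UMIs.

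**Figure D1:**
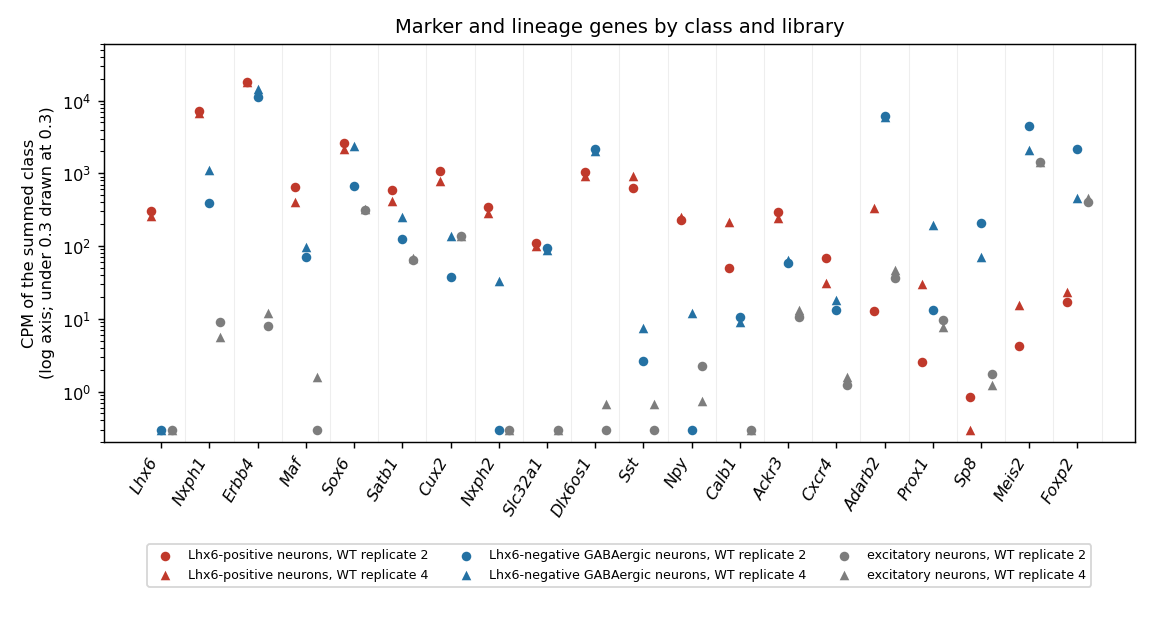
CPM of 20 marker and lineage genes (log axis) in the summed cells of 3 classes, with circles for WT replicate 2 and triangles for WT replicate 4, where Lhx6 is a gene of the gate. Nxph1 and Maf stand highest in both libraries in Lhx6-positive neurons, Erbb4 is near in both GABAergic classes, and Adarb2, Sp8, Meis2 and Foxp2 stand highest in Lhx6-negative GABAergic neurons.

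Markers of other neurons and of non-neural cells were mostly low in members. The 6 excitatory markers summed to 4.27 and 28.8 CPM in members against 1325 and 1250 in excitatory neurons, with 31 of the 35 UMIs of replicate 4 in 1 member, and intermediate progenitor markers to 2.56 and 4.94 against 310 and 364. Endothelial, mural, meningeal and microglial lists summed to at most 8.55 CPM each. The 6 radial glia markers summed to 246 and 294 CPM against 380 and 368 in excitatory neurons, but moved in both directions. Sox2, a factor of neural progenitors, had 230 and 227 CPM in members against 12.8 and 12.5 in excitatory neurons and was called higher in edgeR's test (log2 fold change 4.19, SE 0.51), whereas Vim, Slc1a3, Fabp7 and Pax6 were called lower. Hemoglobin genes reached 137 and 308 CPM, near the 156 and 541 of excitatory neurons in the same libraries. Cajal-Retzius markers had no UMI in replicate 2 and 56 in replicate 4, all in 1 member. The part of these cells in the results was not tested.

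The peptide Sst, which marks a major class of MGE-derived interneurons in the adult cortex, was already present in many members. An Sst UMI was found in 23 of 51 members of replicate 2 (45.1%, exact interval 31.1% to 59.7%) and in 32 of 76 of replicate 4 (42.1%, 30.9% to 54.0%). The mean share was 43.6% ± 2.12 (SD, n = 2), and both intervals overlap widely. Positive members held a median of 8 and 11.5 Sst UMIs and up to 347 and 273. In excitatory neurons, which should lack Sst, 0.302% and 1.74% of cells held a UMI, at median depths of 33079 and 24934 UMIs. With every member thinned to 5000 UMIs, the shares were 26% of 50 and 35.6% of 73 members, and the mean fell to 30.8%.

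The promoter of Sst is shown because its cAMP response element (CRE) is a textbook control site and because this peptide splits the members below. The bases are the 250 before the annotated start on the minus strand of chromosome 16, chr16:23890845-23891094 of GRCm38.p6 (mm10), from RefSeq, with the CRE in capitals.

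Sst: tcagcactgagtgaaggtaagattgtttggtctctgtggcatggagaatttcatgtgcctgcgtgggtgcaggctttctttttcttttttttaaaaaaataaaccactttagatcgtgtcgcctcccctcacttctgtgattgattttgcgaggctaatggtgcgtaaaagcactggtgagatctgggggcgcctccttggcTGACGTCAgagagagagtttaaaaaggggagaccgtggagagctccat

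The palindrome TGACGTCA, which reads the same on both strands, occurred once and began 48 bases before the start. It was found in 508 of 32851 promoter windows of the same length (1.55%). The letters TAATTA, a homeodomain core searched on both strands and distinct from the CRE, were absent from this window and present in 1590 windows (4.84%).

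Npy, the gene of neuropeptide Y, was found in 39.2% and 31.6% of members, and in 36% and 26% after thinning. Calb1, a calcium buffer, was found in 25.5% and 36.8%, but in 6% and 28.8% after thinning, with replicate 4 higher on both scales. Excitatory neurons held an Npy UMI in 1.51% and 0.614% of cells and a Calb1 UMI in 0% and 0.409%. Nr2f2, a nuclear receptor gene of the caudal and dorsal medial eminences, was found in 37.3% and 44.7% of members, and in 24.0% and 26.7% of the excitatory neurons. Prox1, a CGE factor, was found in 3.92% and 7.89% of members and in 11.2% and 8.7% of the deeper excitatory neurons. After thinning its shares were 0% and 5.48% in members and 4.47% and 3.63% in excitatory neurons, so the order differed between libraries. For the chemokine receptor Cxcr4 the libraries differed, with 68.6% and 32.9% of members, and 36% and 15.1% after thinning. The scavenging receptor Ackr3 for the same chemokine was found in 98.0% and 75%.

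**Figure D2:**
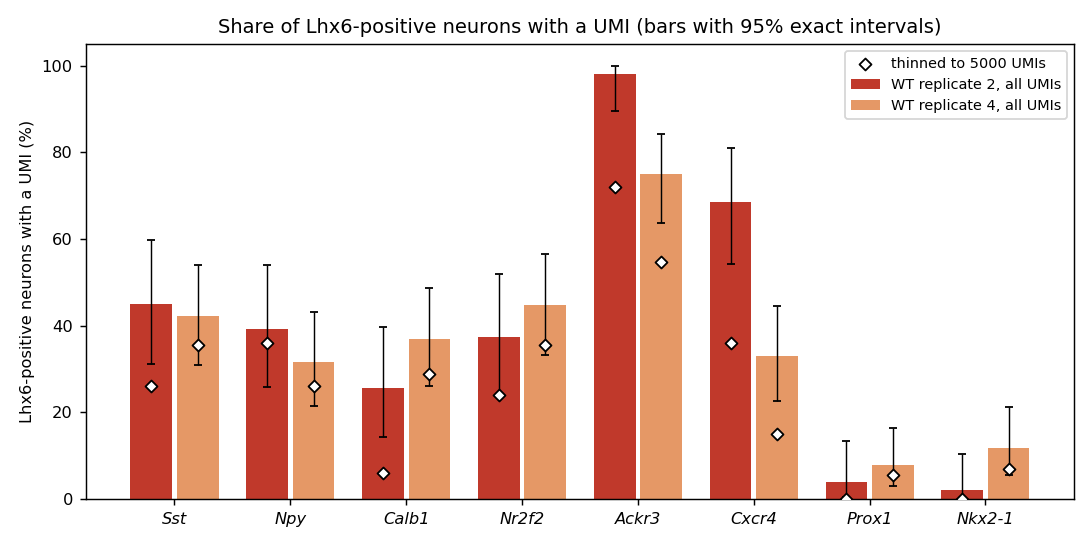
Share of Lhx6-positive neurons with a UMI of 8 genes (percent, from 0) in WT replicate 2 and WT replicate 4, as bars with 95% exact binomial intervals, and as white diamonds after thinning to 5000 UMIs. Sst and Npy have overlapping intervals in both libraries, whereas Cxcr4 stands at 68.6% in replicate 2 and 32.9% in replicate 4.

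The members were next compared with the other GABAergic neurons of the same libraries that lacked Lhx6. UMIs were summed per class and library, and edgeR's quasi-likelihood test was fitted over 10272 genes with the genes of the gates left out. At a Benjamini-Hochberg adjusted p under 0.05, 155 genes were called (1.51% of those tested), 81 higher (0.789%) and 74 lower (0.72%) in members. With the library as a block, 282 were called (2.75%), among them all 155. Because the classes differ in an Lhx6 UMI, genes that go with Lhx6 could be favoured, and gating and testing on separate UMIs of each cell called 119, of which 88 were among the 155. Nxph1, Calb1, Kcnc2 and Grik1 lost their calls there. In the Lhx6-negative class 60 of 86 cells held at least 3 UMIs of Adarb2, a marker of CGE interneurons, and 44 held as many of Meis2.

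Of 12 MGE lineage genes tested, 5 were called higher in members, 7 were not called and none was lower, although the library block also called Etv1 lower. Their median log2 fold change was 1.44, beside 0.00 (-0.000776) over all genes. Maf had 650 and 405 CPM in members and 71.6 and 98.6 in Lhx6-negative neurons, a log2 fold change of 2.64 (SE 0.50, adjusted p = 0.0182). Each member sum was above each comparison sum.

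Cux2, a homeobox gene, had 1089 and 778 CPM in members against 37.1 and 140, a log2 fold change of 3.37 (SE 0.58, adjusted p = 0.0111). The neurexin ligand genes Nxph1 and Nxph2 were higher by 3.23 (SE 0.71, adjusted p = 0.0395) and 3.97 (SE 0.62, adjusted p = 0.00760), with Nxph1 at 395 and 1118 CPM and Nxph2 at 0 and 33.4 in Lhx6-negative neurons. Erbb4, a marker of the members, did not pass the test: Lhx6-negative neurons had 11171 and 14614 CPM, a log2 fold change of 0.50 (SE 0.87, adjusted p = 0.943). Sox6 did not pass either, at 666 and 2342 CPM in Lhx6-negative neurons, and Satb1 had a log2 fold change of 1.42 (SE 0.41, adjusted p = 0.136). None of the 9 general GABAergic genes, such as Dlx1 and Slc32a1, was called, with a median of 0.12.

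Of 7 peptide and calcium buffer genes tested, 3 were called higher in members. Sst had 619 and 916 CPM in members and 2.65 and 7.58 in Lhx6-negative neurons, a log2 fold change of 7.09 (SE 0.86, adjusted p = 0.00167). Npy stood at 226 and 253 CPM against 0 and 12.1 (log2 fold change 5.0, SE 0.72, adjusted p = 0.00468). Calb1 stood at 50.4 and 217 CPM against 10.6 and 9.10 (3.82, SE 0.78, adjusted p = 0.0264). Sst and Npy were thus near absent from the comparison class in both libraries.

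Guidance, receptor, channel and adhesion genes were described in the same way. Of 24 guidance genes, Ackr3 was higher, with 294 and 245 CPM against 58.3 and 65.2 (2.14, SE 0.27, adjusted p = 0.00195), and so was Sema3a, the gene of a repulsive secreted semaphorin, with 183 and 164 CPM against 29.2 and 44.0 (2.22, SE 0.50, adjusted p = 0.0453). The median of the list was 0.08. Among 13 glutamate receptor genes Grik1, a kainate receptor subunit, was called, at 1212 and 900 CPM against 18.6 and 135 (3.72, SE 0.74, adjusted p = 0.0228). Among 18 channel genes Kcnc2 was called, at 480 and 577 CPM against 119 and 102 (2.30, SE 0.42, adjusted p = 0.0156). It encodes a potassium channel subunit of fast-spiking cells. With the library as a block, the receptor genes Gria4 and Grm5 and the channel gene Scn1a were among those also called higher, and the guidance genes Ephb1, Robo1 and Slit1 lower. Of 18 adhesion genes, Pcdh19 was higher (2.73, SE 0.39) and Dscam lower (-3.51, SE 0.67). None of 12 GABA receptor and chloride genes and none of 7 DNA methylation genes was called, and 1 of 16 migration cytoskeleton genes, Rnd3, was lower (-1.98, SE 0.39).

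Outside the lists, genes with the largest differences included Dgkg, a diacylglycerol kinase, at 187 and 226 CPM against 0 and 7.58 (5.46, SE 0.57). Cacng3, an AMPA receptor auxiliary subunit, stood at 114 and 70.8 CPM against 5.30 and 1.52 (5.0, SE 0.57), and Neto1, an auxiliary subunit of kainate and NMDA receptors, at 715 and 259 against 7.95 and 37.9 (4.27, SE 0.62). The secreted factor gene Ism1 had 84.6 and 55.9 CPM against 0 and 3.03 (5.20, SE 0.72). Col19a1, a collagen gene, had 93.2 and 37.0 CPM in members and no UMI in the comparison class, so over both libraries it was at least 22.3-fold higher against 3 UMIs over that class.

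Among genes lower in members were 1 of 7 CGE lineage genes (Sp8) and 2 of 10 striatal projection neuron genes (Meis2 and Foxp2). With the library as a block, 4 of the 7 and 4 of the 10 were called lower. Meis2, a homeobox gene of the lateral and caudal eminences, had 4.27 and 15.6 CPM in members and 4418 and 2079 in Lhx6-negative neurons (-8.30, SE 0.97, adjusted p = 0.00112). Sp8 had 0.855 and 0 CPM against 207 and 71.3 (-8.18, SE 0.95), and Pax6 0 and 1.65 against 106 and 78.9 (-6.69, SE 1.04). Foxp2 had 17.1 and 23.0 CPM against 2185 and 458 (-5.99, SE 0.77), and Pbx3 18 and 112 against 5144 and 746 (-5.45, SE 1.03). Each of these factors was lower in both member sums than in both Lhx6-negative sums. Kctd16, which encodes an auxiliary subunit of GABA-B receptors, had 2.56 and 0.823 CPM against 196 and 176 (-6.74, SE 0.57, adjusted p = 0.000509). Adarb2 had 12.8 and 337 CPM in members against 6160 and 5934 and missed the threshold (-5.08, SE 1.29, adjusted p = 0.0828), which it passed with the library as a block (adjusted p = 0.00141).

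**Figure D3:**
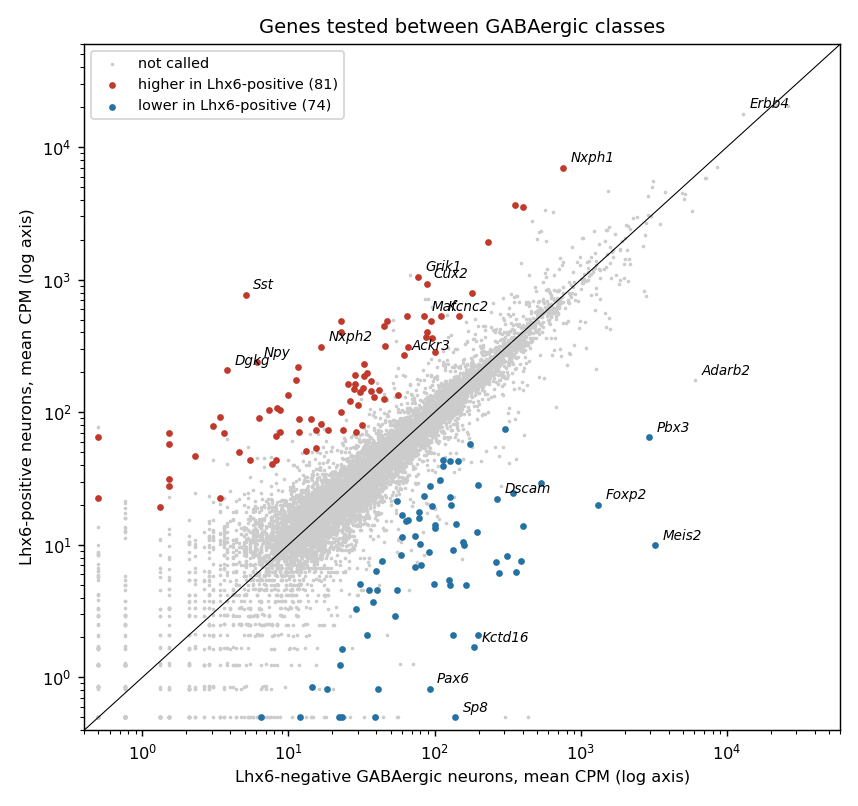
Mean CPM over both libraries (log axes, under 0.5 drawn at 0.5) of the 10272 genes tested, in Lhx6-negative GABAergic neurons (x) and Lhx6-positive neurons (y). Red points are the 81 genes called higher and blue points the 74 called lower, and the line marks equal levels.

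Of 28 called genes followed through the alternatives, 11 kept their call in every alternative that gave a value, Sst, Ackr3, Dgkg, Meis2, Sp8 and Kctd16 among them. Nxph1 lost its call in 6 alternatives, Sema3a in 5, and Grik1 and Rnd3 in 4 each. A fit of these 2 classes alone called 36 genes, and a fit without classes of under 10 cells in a library called 92.

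Against Six3 or Isl1 GABAergic neurons, the test called 384 of 10272 (3.74%), 175 higher (1.7%) and 209 lower (2.03%) in members, and 450 with the library as a block (4.38%). This class rests on 1 cell of 9517 UMIs in replicate 2, so the levels of replicate 4 are the ones to read. Of 12 MGE lineage genes, 10 were higher, with a median log2 fold change of 3.95 beside 0.07 over all genes. In replicate 4, Nxph1 had 6847 CPM in members and 25 in the Six3 or Isl1 class, Maf 405 and 10.2, Sox6 2171 and 103, and Satb1 415 and 39.8. These genes were at 0 in the lone cell of replicate 2. Sox6 (4.83, SE 0.82) and Satb1 (3.77, SE 0.56) were thus called here, and not against the Lhx6-negative class; whether these contrasts differ was not tested.

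Striatal projection neuron genes were lower, 6 of 10 tested. Meis2 had 15.6 CPM in members and 6712 in the Six3 or Isl1 class of replicate 4 (-8.84, SE 0.99), and Rarb, a retinoic acid receptor gene of the striatum, had 4.11 and 498 (-6.66, SE 0.51). Foxp2 had 23.0 and 2382 CPM (-6.59, SE 0.80) and Zfp503 had 0.823 and 157 (-8.46, SE 0.97). Ebf1, a striatal factor, had no UMI in any member and 5409 CPM in this class of replicate 4. Summed over both libraries, the class stood at least 4264-fold higher against 3 UMIs over all members. Ebf1 was also at 0 in the lone cell of replicate 2, so that bound rests on replicate 4 for the class.

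Of the guidance genes, Ackr3 (5.24, SE 0.44), Cxcr4 (2.34, SE 0.60) and the ephrin receptor gene Epha5 were higher, whereas the ephrin receptor genes Ephb1 and Epha4 (-2.76, SE 0.69) and the Slit receptor gene Robo1 (-3.19, SE 0.72) were lower. Ackr3, Cxcr4, Epha5 and Ephb1 were at 0 in the lone cell of replicate 2. In replicate 4, Cxcr4 had 31.3 CPM in members and 10.2 in the Six3 or Isl1 class, and Robo1 had 265 and 3016. Cxcr4 lost its call in 2 alternatives, and Epha4, Robo1 and Ebf1 in 1 each.

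The comparison with excitatory neurons of the same tissue gave the most calls, 1699 of 10272 genes (16.5%), with 844 higher (8.22%) and 855 lower (8.32%), and 1728 with the library as a block (16.8%). All 9 general GABAergic genes were higher, with a median log2 fold change of 9.46, although the gate on Gad1 and Gad2 favours such genes. Slc32a1, the vesicular GABA transporter, had 110 and 100 CPM in members and 0 and 0.118 in excitatory neurons (10.28, SE 0.50), and the factor Sp9 had 177 and 230 against 0.0885 and 0.158 (10.44, SE 0.55). Of 12 MGE lineage genes, 10 were higher, among them Maf (9.11, SE 0.63), Nxph1 (9.92, SE 0.95), Erbb4 (10.80, SE 1.31), Cux2 (2.79, SE 0.54) and Sox6 (2.92, SE 0.68). Sst was higher by 10.87 (SE 0.85).

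Glutamate receptor genes differed in both directions, 7 of 13 higher and 2 lower, with a median of 1.42 beside 0.00 (0.00379) over all genes. The AMPA receptor subunit Gria1 had 3615 and 3073 CPM in members and 175 and 195 in excitatory neurons (4.19, SE 0.85, adjusted p = 0.00349). Gria4, the subunit typical of interneurons, had 3208 and 3316 CPM against 81.7 and 91.8 (5.25, SE 0.64, adjusted p = 7.06e-05). Gria3 went the other way, at 60.7 and 60.9 CPM against 165 and 173 (-1.46, SE 0.30, adjusted p = 0.00401). Grik1 had 7.61 and 9.30 CPM in excitatory neurons (6.97, SE 0.83) and the metabotropic receptor Grm5 had 91.5 and 75.7 (3.72, SE 0.93, adjusted p = 0.0136). Members thus stood above excitatory neurons in Gria1 and Gria4 and below them in Gria3, in both libraries.

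Receptors for GABA and chloride transport were called in 6 of 12 cases, all higher. Gabrg3, a GABA-A receptor subunit, had 299 and 461 CPM in members and 4.2 and 6.22 in excitatory neurons (6.19, SE 0.57). Slc12a5, the chloride exporter that makes GABA inhibitory in mature neurons, was low at 17.1 and 16.5 CPM, yet above the 2.12 and 3.51 of excitatory neurons (2.57, SE 0.36, adjusted p = 0.0002). Of 18 channel genes 9 were higher and 3 lower. Kcnc2 had 43.5 and 23.8 CPM in excitatory neurons (3.99, SE 0.43), and Kcnq3, an M-current potassium channel gene, had 90.6 and 97.1 CPM in members against 1048 and 955 (-3.40, SE 0.58).

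Of 18 synaptic adhesion genes 8 were higher and 4 lower. Nrxn3, a presynaptic neurexin, had 20394 and 20564 CPM in members and 31.0 and 38.8 in excitatory neurons (9.21, SE 1.02), and Elfn1, a postsynaptic organizer of somatostatin cells, had 60.7 and 63.3 against 1.06 and 0.788 (6.06, SE 0.40). Cntnap4, a contactin-associated protein of interneurons, was higher by 3.39 (SE 0.59). Guidance genes were split, with 6 of 24 higher and 10 lower and a median of -1.02. Cxcr4 (5.13, SE 0.39), Ackr3 (4.50, SE 0.26) and the neurotrophin receptor gene Ntrk2 (2.68, SE 0.55) were higher. The semaphorin receptor genes Nrp1, with 30.8 and 89.7 CPM against 515 and 455 (-2.99, SE 0.48), and Plxna4, with 151 and 226 against 1281 and 1397 (-2.81, SE 0.72), were lower. The netrin receptor gene Unc5d was lower too (-3.20, SE 0.99, adjusted p = 0.0424), and its call was lost in 3 alternatives.

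Among 16 genes of the migration machinery none was called higher and 3 were lower, with Rnd2 at 5.98 and 14 CPM in members against 230 and 217 (-4.46, SE 0.35). Rnd2 is known for its part in the migration of excitatory neurons. Dcx, the microtubule gene of migrating neurons, had 980 and 911 CPM in members and 632 and 662 in excitatory neurons and was not called. Of 7 DNA methylation genes, the de novo methyltransferase Dnmt3a was higher, at 68.4 and 68.3 CPM against 26.9 and 27.9 (1.33, SE 0.31, adjusted p = 0.00943), as was the demethylating dioxygenase Tet2, at 156 and 119 against 71.7 and 75.6 (0.92, SE 0.25, adjusted p = 0.0231). The maintenance methyltransferase Dnmt1 had 53.8 and 46.1 CPM in members and 38.5 and 35.1 in excitatory neurons and was not called. Dnmt3a, Gria3 and Grm5 lost their calls with DESeq2's Wald test, and Tet2 lost its call in 3 alternatives.

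Differences among the members were described next. Residual variance, the spread of a gene's UMIs over cells beyond what depth and counting noise give, was computed per library for 9092 genes, and genes were ranked by the lower of both values. The median of that lower value was 1.10. Epha5, an ephrin receptor gene, ranked highest with 22.5 and 24.5, and members held a median of 75 and 63 Epha5 UMIs with up to 418 and 388. Tenm2, a teneurin adhesion gene, followed with 22 and 24.2. The 20 highest genes also held the receptor genes Grik1, Grik2 and Grm5, the guidance receptors Dcc and Epha3, the adhesion gene Cntnap4, the neuregulin gene Nrg3 and the mitochondrial genes mt-Atp6 and mt-Co3. Sst ranked 47 with 9.06 and 10.9, and Npy ranked 85 with 7.57 and 7.88.

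**Figure D4:**
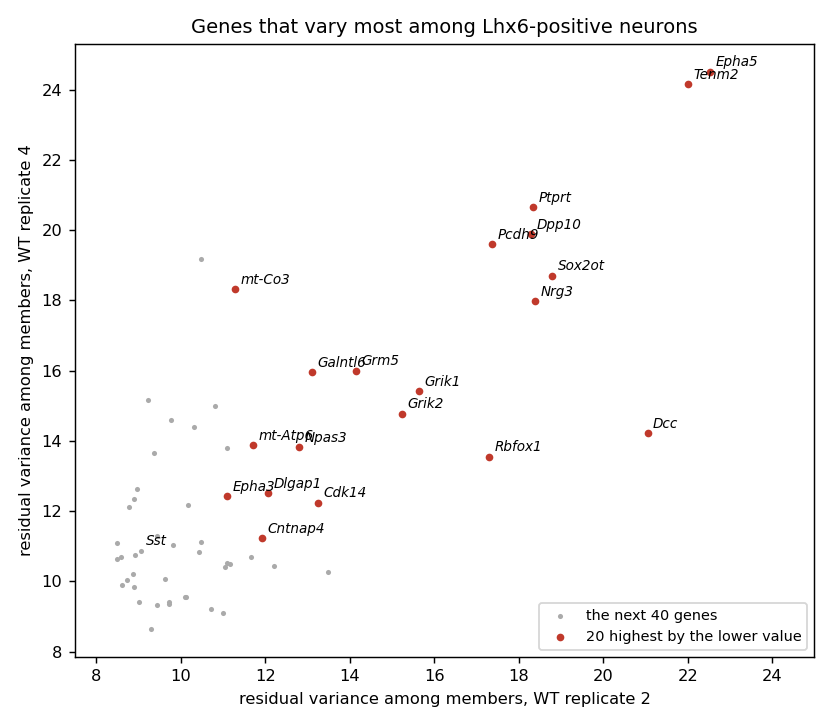
Residual variance of UMIs among Lhx6-positive neurons in WT replicate 2 (x) and WT replicate 4 (y) for the 60 genes ranked highest by the lower value, with the 20 highest in red. Epha5 and Tenm2 stand above 20 in both libraries, and the median over all 9092 genes ranked was 1.10.

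The members were then split into cells with and without an Sst UMI, since the study takes somatostatin interneurons as its subject. Cells with an Sst UMI were slightly deeper, with medians of 25713 and 15281.5 UMIs against 22617.5 and 12810. In a fit of its own over 7498 genes, without Sst, 8 genes were called (0.107%), all higher in Sst-positive members, and 658 had an unadjusted p under 0.05. In this edgeR fit without the library as a block no gene was called lower, whereas DESeq2's Wald test called 21 higher and 8 lower. With the library as a block, 81 genes were called (1.08%), 61 higher and 20 lower, including all 8.

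Among the 8 called genes Npy had the largest difference, at 412 and 506 CPM in Sst-positive and 45.4 and 32.4 in Sst-negative members, a log2 fold change of 3.54 (SE 0.27, adjusted p = 0.00520). Both Sst-positive sums were far above both Sst-negative sums. By cells, an Npy UMI was found in 60.9% of 23 Sst-positive and 21.4% of 28 Sst-negative members of replicate 2, and in 53.1% of 32 and 15.9% of 44 of replicate 4. After thinning, the shares were 69.2% and 24.3% in replicate 2 and 46.2% and 14.9% in replicate 4.

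Sema3a had 346 and 296 CPM against 25.2 and 47.8 (3.1, SE 0.31, adjusted p = 0.0144). Of 18 synaptic adhesion genes, 1 was called, Lrrc4c. The cell adhesion gene Lrfn5 had 297 and 401 CPM against 28.6 and 55.5 (3.02, SE 0.33), Lrrc4c itself, a netrin-G ligand gene, had 157 and 212 against 15.1 and 35.4 (2.82, SE 0.36), and the contactin gene Cntn1 had 315 and 272 against 47.1 and 38.5 (2.76, SE 0.24, adjusted p = 0.00890). Gria3 had 104 and 116 CPM against 18.5 and 12.3 (2.82, SE 0.31, adjusted p = 0.0176), and members as a whole held less of it than excitatory neurons. The actin-binding nebulette gene Nebl (2.91, SE 0.32) and Tmem132c (2.61, SE 0.32) completed the 8.

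The 8 genes rested on few UMIs in Sst-negative members, for example 11 and 8 for Gria3 and 11 and 7 for Nebl. Npy, Lrfn5 and Cntn1 kept their calls in all 13 alternatives that gave a value. After thinning, 4 of the 8 stayed called, Lrrc4c, Nebl and Tmem132c lost their calls, and Gria3 gave no value. In other alternatives Lrrc4c lost its call in 2, and Tmem132c, Sema3a and Gria3 in 1 each, Gria3 without the 10 members with at least 3 Adarb2 UMIs. In RefSeq promoter windows, 7 of the 8 genes had an entry, and none of their 12 windows held the TGACGTCA of Sst or TAATTA. Over all promoter windows the shares were only 1.55% and 4.84%, so 12 windows are too few to read an absence from. Nebl and Cntn1 had several windows each.

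Lineage genes did not separate the split. None of 12 MGE lineage genes tested was called, with a median of 0.03 beside 0.00 (0.00280) over all genes, and none of 17 channel, 11 GABA receptor, 14 cytoskeleton or 6 DNA methylation genes was. A Maf UMI was found in 95.7% of Sst-positive and 100% of Sst-negative members of replicate 2 and in 75% and 93.2% in replicate 4. Calb1 had 52.2 and 372 CPM in Sst-positive and 48.7 and 81.7 in Sst-negative members and did not pass the test (1.67, SE 0.73, adjusted p = 0.567).

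With the library as a block, genes lower in Sst-positive members appeared. Epha5 had 3465 and 3469 CPM in Sst-positive and 7518 and 7342 in Sst-negative members (-1.12, SE 0.17), with an adjusted p of 0.0970 without and 0.00944 with the block. Cntnap4 had 426 and 573 CPM against 1128 and 1147 (-1.20, SE 0.22), and the GABAergic factor Sp9 had 101 and 129 against 250 and 319 (-1.33, SE 0.24). Their adjusted p was 0.135 each without the block and 0.0182 and 0.0149 with it. Epha5 was called in 4 other alternatives as well, and Cntnap4 with DESeq2. Adhesion genes were called higher with the block in 6 of 18 cases and lower in 1, among the higher Lingo2 (3.06, SE 0.59), Cdh13 (2.66, SE 0.57) and the neuroligin gene Nlgn1 (1.47, SE 0.30).

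**Figure D5:**
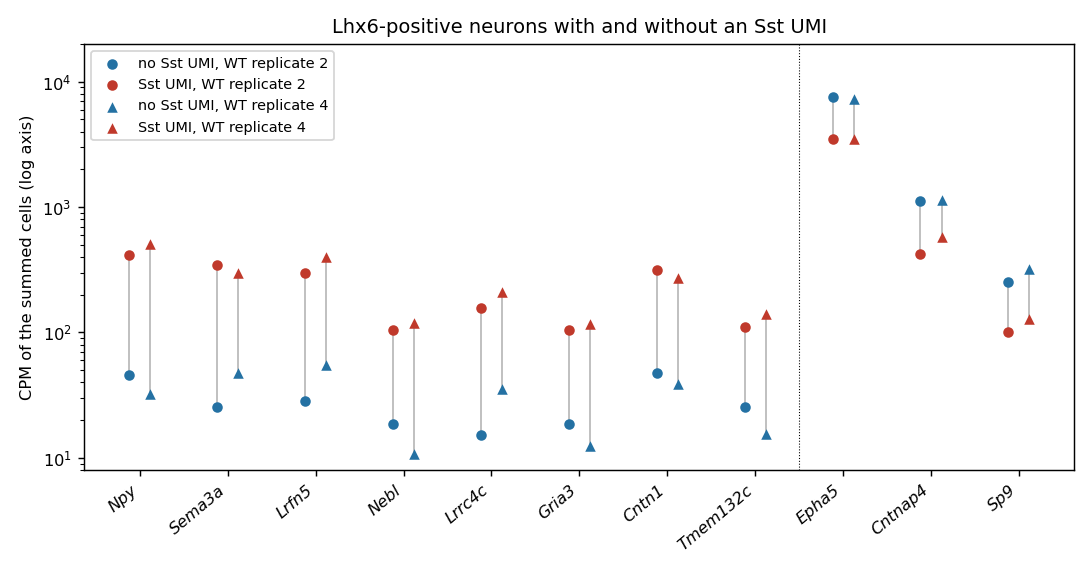
CPM (log axis) of 11 genes in the summed Lhx6-positive neurons with an Sst UMI (red) and without one (blue), joined within a library, with circles for WT replicate 2 and triangles for WT replicate 4. The 8 genes left of the dotted line were called higher by edgeR, and Epha5, Cntnap4 and Sp9 to its right were not called in this fit and were called lower with the library as a block.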

How the data were processed

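The authors dissociated dorsal telencephalons with papain and prepared libraries with the 10x Genomics 3' kit v3.1. The submitters' processing notes name Cell Ranger 7.0.0 and mm10. As deposited, the files hold UMI counts that had not been normalized, and whether intronic reads were counted is not given in the sources used here, which affects the counts of long genes. Kept cells had medians of 30872 and 23007 UMIs in replicates 2 and 4.

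Members and classes were gated on raw UMIs as given above, counts were summed per class and library, and 10 sums of 5 classes (dividing GABAergic cells as the fifth) entered 1 fit with edgeR 4.0.16 (TMM, filterByExpr, glmQLFit, glmQLFTest). The study states no test for these classes. Genes of the gates were left out before Benjamini-Hochberg adjustment. The SE is the size of the log2 fold change over the root of its F statistic. Cells were never replicates. The unit of replication was the library, and precision is limited by n = 2. All values of 1 library come from the same animals or cells, so the library pairs the sums: deviations of paired classes correlated with 0.124 (Lhx6-negative), 0.0318 (Six3 or Isl1), 0.277 (excitatory) and 0.220 (Sst split). The fit with the library as a replicate block was an alternative.

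Doublets were not removed (Scrublet in scanpy 1.11.5 as an alternative). Residual variance used analytic Pearson residuals with theta 100, clipped at the square root of the cell number, for genes in at least 10% of members of each library. The scripts were tested on simulated data. Genes named were those of 13 lists, in each direction at most 10 called genes ranked by size of change, with the same sign in both libraries and at least 50 CPM in the higher class, and the 20 of highest variance. The members and lists were chosen with earlier results of these data known. DESeq2 1.42.0, another scaling, low-count filter, cell filter, member rule, depth, sums in the fit, left-out libraries and separate UMIs for gate and test were alternatives.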

Additional observations from a re-analysis of the deposited data

Results flagged for a closer look

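Lhx6 UMIs were also found in cells outside the compared classes, which were looked up by their Lhx6 UMIs. Cells with Lhx6, Gad1 and Gad2 that were turned away by the cycle genes numbered 8, 3 in replicate 2 and 5 in replicate 4, with 58 Lhx6 UMIs together. In replicate 2 their median depth was 310394 UMIs and Scrublet marked all 3, whereas in replicate 4 it was 48582 UMIs and Scrublet marked none. Nxph1 stood at 558 and 1992 CPM in these cells and Nkx2-1 had no UMI.

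A further 16 kept cells, 8 in each library, held an Lhx6 UMI and no UMI of Gad1 or Gad2, with 23 Lhx6 UMIs in all. Nxph1 stood at 10.9 and 5.10 CPM in them, against 7130 and 6847 in members. The intermediate filament gene Vim was found in 3 and 7 of the 8 cells, at 1638 and 1179 CPM against 7.69 and 31.3 in members. Maf was found in 5 and 0 of these cells, at 71.0 CPM in replicate 2, and Sst in 3 and 0. Barcodes below the cell filter with an Lhx6 UMI numbered 22, with median depths of 1621 and 1864.5 UMIs. Nxph1 had 824 and 5832 CPM in them, Erbb4 1884 and 14182, Maf 1001 and 548, and Dlx1 765 and 274. In replicate 2, Nxph1 and Erbb4 were thus below the levels of members and Maf and Dlx1 above them.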

How the results depend on the processing

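Of the called genes followed through the alternatives, 11 of 28 against Lhx6-negative neurons, 10 of 14 against Six3 or Isl1 neurons, 24 of 29 against excitatory neurons and 3 of 8 in the Sst split kept their call in every alternative that gave a value. DESeq2's Wald test called 75, 135, 518 and 29 genes in these comparisons, in place of 155, 384, 1699 and 8. With all genes of at least 1 count, the first 3 counts were 519, 808 and 2592. A fit of the compared classes alone called 36 against Lhx6-negative and 3267 against excitatory neurons. The replicate block, with the library as the pair, called 282 against Lhx6-negative neurons and 81 in the Sst split, and moved no other count by over 1.5 times. Leaving classes of under 10 cells out, chosen after seeing the data, called 92 against Lhx6-negative neurons. The Sst split gave 13 calls with no Neurod2 or Neurod6 UMI allowed or with at least 2 Sst UMIs, 20 with at least 2 Lhx6 UMIs or with separate UMIs for gate and test, and 5 with at most 5% mitochondrial UMIs. The cause of these shifts was not tested.

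The member share of 4.03% became 3.69% under a ceiling of 5% mitochondrial UMIs and 3.46% where 2 Lhx6 UMIs were asked for, and 3.86% to 4.21% in single libraries. The Sst share of 43.6% was 46.6% with at least 2 Lhx6 UMIs and 30.8% after thinning, and 42.1% to 45.1% in single libraries. Sox6 against Lhx6-negative neurons, not called, turned to -0.11 without replicate 2 and was 2.02 without replicate 4. A single library leaves 1 sum for a class, and its folds carry no test.

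Both libraries come from 1 group, 1 class rests on 1 cell in replicate 2, and a gene with few UMIs in 24 to 76 cells can be missed. Lhx6 itself can be missed in shallow cells, and Lhx6-negative cells were the shallower class.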

Other observations

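At least 3 UMIs of the CGE marker Adarb2 were found in 10 members, 2 in replicate 2 and 8 in replicate 4. They were singled out after their values were seen. The 8 cells of replicate 4 had 2933 CPM of Adarb2 against 5.57 in the other 68 members, but 1 cell held 272 of the 410 Adarb2 UMIs of that library's members. The 8 cells and the others had Lhx6 at 269 and 258 CPM, Nxph1 at 6281 and 6919, and Sox6 at 2904 and 2077. The 8 cells held no Prox1 or Sp8 UMI, and 4 of them held an Sst UMI. The netrin receptor gene Unc5d stood at 1685 CPM in them and at 120 in the others. Scrublet marked none of them. The 2 cells of replicate 2 had 354 CPM of Adarb2 and no Unc5d UMI, so the Unc5d level was not seen in that library.

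Libraries differed in 2 further genes. Tac1, the gene of substance P, had no UMI in the 51 members of replicate 2, which allows a share of cells with a UMI of up to 6.98% (exact interval) and sets no limit on cells expressing it, and was found in 10 of 76 members of replicate 4 (13.2%, 6.49% to 22.9%). The ephrin Efna5 had 103 and 268 CPM. With 1 library each, neither difference was tested.

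An Ackr3 UMI was found in 100% of Sst-positive and 96.4% of Sst-negative members of replicate 2, but in 59.4% and 86.4% of replicate 4. After thinning, the shares were 76.9% and 70.3% in replicate 2 and 30.8% and 68.1% in replicate 4, so the order differed between libraries.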
